A study of Homo sapiens with 4 samples.

Results

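Matrix metalloproteinases are secreted or membrane-bound proteases, and 6 of their genes were followed together with 3 genes for their tissue inhibitors (TIMPs) and the gene for elafin, an inhibitor of serine proteases. The 10 genes were given by symbol, as MMP1, MMP2, MMP3, MMP10, MMP13, MMP14, TIMP1, TIMP2, TIMP3 and PI3, out of 60279 genes listed in each count table. Some of them were selected on their counts in these libraries, as genes that the drug combination had raised most, so their height in the combination library is given here as a description. SUM159 is an established cell line of triple-negative breast cancer (TNBC) and was the only cell material, with insulin and hydrocortisone in the medium of every culture. The 4 libraries came from cells left untreated (UT), given palbociclib (PD), given indisulam (IN) or given both drugs (P+I). Palbociclib blocks the cell cycle kinases CDK4 and CDK6, and indisulam is a sulfonamide that brings the splicing factor RBM39 to a ubiquitin ligase for degradation. The study asked whether the pair of drugs drives cells into senescence, a lasting arrest that often comes with secretion of proteases and cytokines. The labels of the libraries give 0.5 µM palbociclib, 2 µM indisulam and 10 days. The text on the whole series gives 2 µM, 3 µM and 16 h with technical duplicates. Neither states which applies here or whether duplicates were merged. The paper gives the former settings for its SUM159 senescence RNA sequencing, which its methods also describe as done in duplicates. It gives the latter for its splicing experiment, whose reads it aligned with Hisat2, whereas the processing notes of these libraries name TopHat2. There was 1 library for each condition, so no value below has a replicate check and no p-value was computed.

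Metalloproteinases are made as inactive proenzymes and cut proteins of the extracellular matrix once activated. Collagenases open fibrillar collagen, stromelysins cut proteoglycans and other matrix proteins and can activate procollagenases, gelatinases take denatured and basement membrane collagen, and membrane-type enzymes work at the cell surface. TIMPs bind the active enzymes and close their catalytic site. Elafin belongs to another branch of protease control, because it blocks neutrophil elastase and proteinase 3 and not metalloproteinases.

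The libraries held 12555908 to 16712174 reads in genes, and 3 reads, the floor used here for a gene that is barely seen, corresponded to between 0.180 and 0.239 CPM, the read count relative to the library total. Of the 60279 genes, 14269 reached a mean of 1 CPM over the 4 libraries and were tested. A gene was called higher or lower when the ratio of its scaled counts was at least 2-fold and the 95% interval of the log2 ratio left out 0. Intervals and floors stand for counting error alone, because the reads carried no molecular identifiers and may be copies of one molecule. The line's markers VIM, CD44, ZEB1 and FN1 were all above 46 CPM in every library, while ESR1 and PGR, the hormone receptor genes that TNBC lacks, had at most 16 and 3 reads. ERBB2, the receptor gene that is not amplified in TNBC, was between 109.6 and 142.7 CPM. Of the epithelial markers, KRT8 was at 416 to 575 CPM and KRT18 at 162 to 249 CPM, while EPCAM and CDH1 reached at most 1.12 and 1.95 CPM. The leukocyte markers PTPRC, CD14, LYZ and CSF1R summed to between 17.1 and 22.2 CPM. PTPRC held most of this, at 11.1 to 17.5 CPM, CD14 was at 3.95 to 9.24 CPM, and LYZ had no more than 3 reads. The endothelial markers PECAM1, VWF and CDH5 summed to 16.1, 43.0, 18.5 and 21.6 CPM in the untreated, palbociclib, indisulam and combination libraries. Most of this was PECAM1, at 15.2, 40.9, 17.5 and 20.4 CPM, and CDH5 had 0 reads in the latter pair of libraries. The part of other cell types in the values below was not tested. In bulk RNA, fewer cells making a transcript and less of it in each cell cannot be told apart.

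RefSeq promoter sequence on GRCh38.p14 was at hand for 4 of the 10 genes, MMP10, MMP14, TIMP1 and TIMP3. All of them are shown, and no sequence was at hand for the other members, which include MMP1, MMP3, MMP13 and PI3. MMP10 is a metalloproteinase gene that stayed at or under the floor. MMP14 and TIMP1 are a metalloproteinase and a TIMP expressed under every condition. TIMP3 is an inhibitor gene that was called higher after each treatment. Each sequence is the 100 bases in front of the annotated gene start, written 5′ to 3′ on the strand of the gene. Capitals mark the letters TGANTCA, the site bound by AP-1 transcription factors, TATAAA, the TATA box, and CCAAT read on either strand, so that ATTGG is its reverse complement. TIMP1 had none of these in the bases shown.
MMP10 promoter, chr11:102780629-102780728, minus strand: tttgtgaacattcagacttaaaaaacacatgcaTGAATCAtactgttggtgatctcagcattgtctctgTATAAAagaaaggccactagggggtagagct
MMP14 promoter, chr14:22836460-22836559, plus strand: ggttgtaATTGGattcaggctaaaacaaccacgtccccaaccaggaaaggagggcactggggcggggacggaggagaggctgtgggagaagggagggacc
TIMP1 promoter, chrX:47582308-47582407, plus strand: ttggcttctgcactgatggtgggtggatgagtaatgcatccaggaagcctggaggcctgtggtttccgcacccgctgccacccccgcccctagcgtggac
TIMP3 promoter, chr22:32801605-32801704, plus strand: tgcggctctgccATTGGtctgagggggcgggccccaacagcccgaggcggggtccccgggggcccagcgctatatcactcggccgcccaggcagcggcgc

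In the MMP10 promoter, the AP-1 letters lay 67 to 61 bases and the TATA box 31 to 26 bases upstream of the RefSeq start. The inverted CCAAT letters lay 118 to 114 bases upstream in MMP14 and 88 to 84 bases upstream in TIMP3. Among 35116 RefSeq promoters, the 250 bases upstream of the start held the AP-1 letters in 6.57%, the TATA box in 10.7% and CCAAT in 32.0%, counted on both strands. A match in these letters is a description and not a measured binding site.

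**Figure D1:**
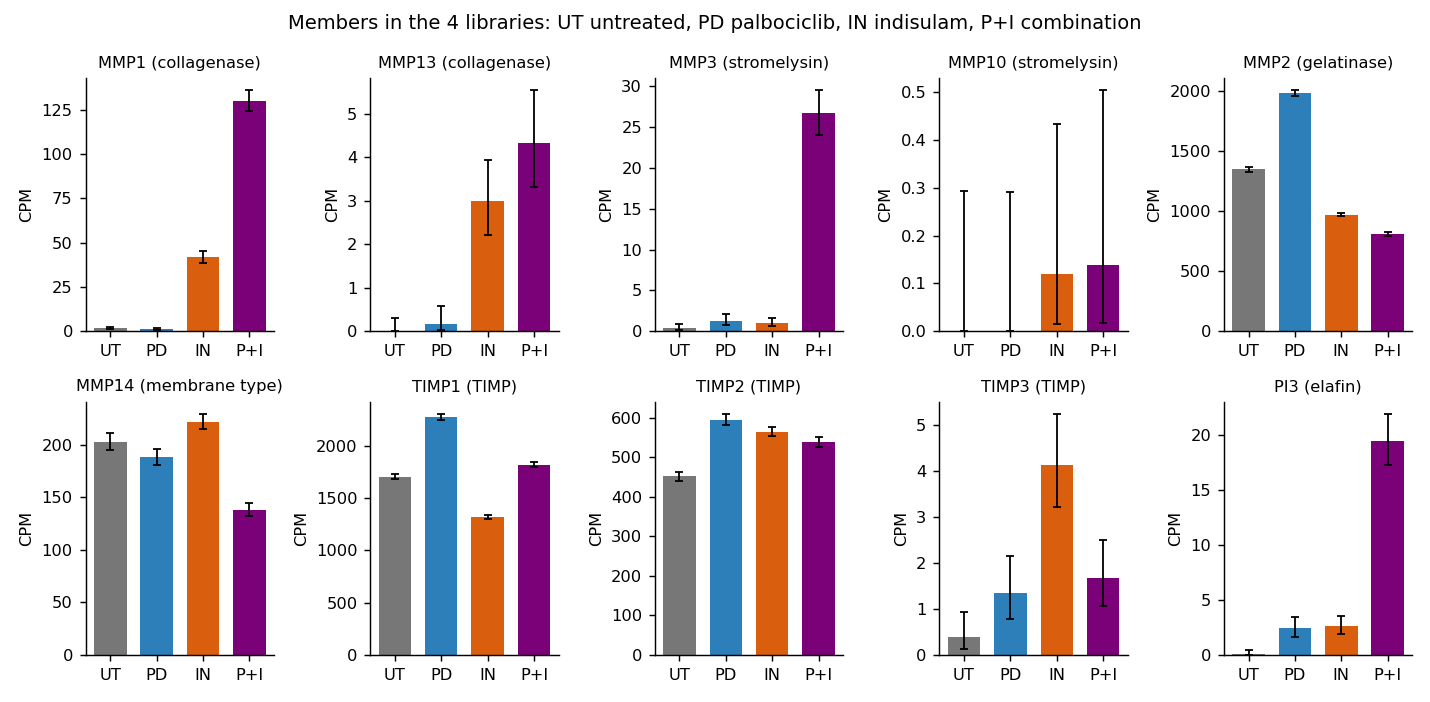
Level of each of the 10 genes in CPM (vertical axes, one scale per gene) in the untreated (UT), palbociclib (PD), indisulam (IN) and combination (P+I) libraries, with exact 95% Poisson intervals as error bars. MMP1, MMP3 and PI3 were highest in the combination, MMP2 and TIMP1 were highest with palbociclib, and MMP10 did not pass 2 reads in any library.

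The interstitial collagenase MMP1 (ENSG00000196611) had the most reads among the 4 low-expressed metalloproteinases. It lies on chromosome 11, GRCh38 positions 102789401 to 102798160, minus strand. MMP1 had 21 reads untreated, 16 with palbociclib, 698 with indisulam and 1863 with the combination, or 1.67, 1.26, 41.8 and 129.7 CPM. The untreated and palbociclib libraries were low and did not differ beyond counting error, and both libraries with indisulam were high. The ratio of indisulam to untreated was 24.97-fold (95% interval 16.2 to 40.6) and that of the combination to untreated was 77.6-fold (50.6 to 126). Palbociclib added to indisulam went with a further 3.11-fold (2.85 to 3.39), although palbociclib alone gave a ratio of 0.754 (0.368 to 1.52) to untreated. Only 2 of the tested genes had a larger log2 ratio of combination to palbociclib than MMP1, a rank that the choice of genes favoured. A pseudogene on the opposite strand, WTAPP1, shares 223 exon bases (8.14%) with MMP1 and 32 (1.73%) with MMP3, and had no more than 3 reads in any library.

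The second collagenase, MMP13 (ENSG00000137745), which prefers the collagen of cartilage, lies on chromosome 11 at 102942995 to 102955732 on the minus strand. MMP13 had 0 reads untreated, 2 with palbociclib, 50 with indisulam and 62 with the combination, which is 0, 0.158, 2.99 and 4.32 CPM. Only the libraries with indisulam were above the floor. With 0 untreated reads, only a lower limit of the ratio to untreated could be given for MMP13. The exact counting interval began at 9.81-fold with indisulam and at 14.3-fold with the combination. The combination and indisulam alone did not differ beyond counting error for MMP13 (1.44-fold, 0.978 to 2.14).

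Stromelysin 1, the product of MMP3 (ENSG00000149968), separated the combination from both single drugs. The gene lies on chromosome 11 at 102835801 to 102843609, minus strand. MMP3 had 5 reads untreated, 16 with palbociclib, 17 with indisulam and 383 with the combination, or 0.398, 1.26, 1.02 and 26.7 CPM. The combination library stood alone at the top, and the counting intervals of the single-drug libraries overlapped each other. The ratio to untreated for MMP3 was 67.0-fold with the combination (28.5 to 207), 3.17-fold with palbociclib (1.11 to 11.05) and 2.55-fold with indisulam (0.905 to 8.86), the last of which was not called. The combination exceeded palbociclib by 21.2-fold (12.9 to 37.4) and indisulam by 26.2-fold (16.2 to 45.5). Only 1 tested gene had a larger log2 ratio of combination to indisulam than MMP3, a rank that the choice of genes favoured.

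Stromelysin 2, encoded by MMP10 (ENSG00000166670), lies beside MMP1 at 102770502 to 102780628 on chromosome 11. MMP10 had 0, 0, 2 and 2 reads in the untreated, palbociclib, indisulam and combination libraries. All 4 values were at or under the floor, so no difference was detectable at this depth and no ratio was taken. This is the gene whose promoter above holds both the AP-1 letters and a TATA box.

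Gelatinase A, encoded by MMP2 (ENSG00000087245), was the most abundant of the 6 metalloproteinases in every library. It lies on chromosome 16 at 55389700 to 55506691, plus strand. MMP2 had 16916 reads untreated, 25077 with palbociclib, 16181 with indisulam and 11602 with the combination, or 1347, 1976, 968 and 808 CPM. Palbociclib alone gave the top value and the combination the bottom one. MMP2 was called lower in the combination than with palbociclib, by 2.45-fold (log2 ratio -1.29, -1.32 to -1.26). The other ratios stayed within 2-fold, at 1.47 for palbociclib to untreated, 0.719 for indisulam to untreated, 0.600 for combination to untreated and 0.834 for combination to indisulam.

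The membrane-type enzyme MMP14 (ENSG00000157227), which activates proMMP2 at the cell surface in a complex with TIMP2, lies on chromosome 14 at 22836560 to 22849041, plus strand. MMP14 had 2550, 2394, 3710 and 1987 reads in the untreated, palbociclib, indisulam and combination libraries, or 203, 189, 222 and 138 CPM. No MMP14 ratio reached 2-fold. The lowest was the combination to indisulam at 0.623 (0.590 to 0.658).

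TIMP1 (ENSG00000102265) was the most abundant of the 10 genes per length. It lies on chromosome X at 47582408 to 47586789, plus strand, and encodes an inhibitor of most soluble metalloproteinases. TIMP1 had 21380 reads untreated, 28872 with palbociclib, 22043 with indisulam and 26122 with the combination, or 1703, 2275, 1319 and 1819 CPM. Its ratio to untreated was 1.34 with palbociclib, 0.775 with indisulam and 1.07 with the combination, none of them called. TIMP1 was thus higher with palbociclib than without it both in the absence and in the presence of indisulam, where the ratio was 1.38 (1.35 to 1.40).

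TIMP2 (ENSG00000035862), on chromosome 17 at 78852977 to 78925387, minus strand, takes part in the activation of proMMP2 as well as in inhibition. TIMP2 had 5670, 7554, 9441 and 7738 reads in the untreated, palbociclib, indisulam and combination libraries, or 452, 595, 565 and 539 CPM. Each treated library was above the untreated one, by 1.32-fold, 1.25-fold and 1.19-fold, and no TIMP2 ratio was called. TIMP2 shares 224 exon bases (3.61%) with CEP295NL on the same strand, a gene with 3, 5, 19 and 38 reads, and reads in that stretch would have been set aside as ambiguous. A noncoding gene on the opposite strand with no more than 3 reads shares 367 bases.

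TIMP3 (ENSG00000100234), an inhibitor that binds to the matrix and also blocks the ADAM protease ADAM17, followed an order of its own. It lies on chromosome 22 at 32801705 to 32863041, plus strand. TIMP3 had 5 reads untreated, 17 with palbociclib, 69 with indisulam and 24 with the combination, or 0.398, 1.34, 4.13 and 1.67 CPM. Indisulam alone gave the top value, and palbociclib and the combination did not differ beyond counting error (1.25-fold, 0.643 to 2.47). The ratio to untreated was 10.4-fold with indisulam (4.23 to 32.9), 3.36-fold with palbociclib (1.19 to 11.7) and 4.20-fold with the combination (1.57 to 14.1), and the combination was 2.47-fold lower than indisulam alone. These TIMP3 values rest on few reads, and even the highest of them is far under those of TIMP1 and TIMP2.

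Elafin, encoded by PI3 (ENSG00000124102), is a small secreted protein that can be crosslinked into the matrix. The gene lies on chromosome 20 at 45174902 to 45176544, plus strand. PI3 had 1 read untreated, 31 with palbociclib, 44 with indisulam and 279 with the combination, or 0.0796, 2.44, 2.63 and 19.4 CPM. The untreated library was under the floor, the single-drug libraries had overlapping counting intervals, and the combination was above both. With 1 read as the base, the ratio of combination to untreated was 244-fold with an interval from 43.4 to 9670. PI3 in the combination was 7.95-fold above palbociclib (5.48 to 11.9) and 7.38-fold above indisulam (5.36 to 10.4), ratios that rest on more reads. The log2 ratio of combination to untreated was larger for 4 tested genes than for PI3. That rank rests on 1 untreated read and was favoured by the choice of genes.

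**Figure D2:**
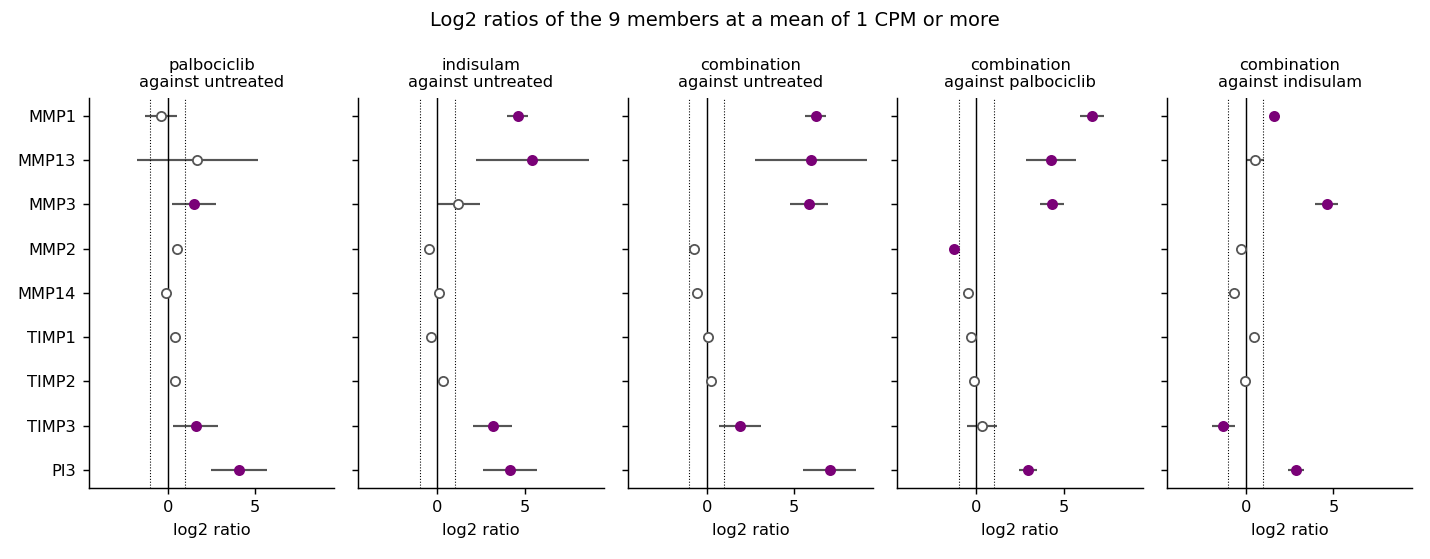
Log2 ratio (horizontal axes) of the 9 tested genes in the 5 comparisons, with 95% counting intervals as lines, filled points for called genes and dotted lines at 2-fold. MMP1, MMP3 and PI3 were called higher in each comparison of the combination with another library, and MMP2, MMP14, TIMP1 and TIMP2 stayed within 2-fold except for MMP2 in the combination against palbociclib at -1.29.

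Counted together, 9 of the 10 genes passed the filter of 1 CPM, and MMP10 did not. Of these 9, MMP13, MMP3, TIMP3 and PI3 were under 1 CPM in untreated cells and passed only through treated libraries, so a ratio above 1 was built into their selection. The palbociclib library had 3 of 9 called higher than untreated (MMP3, TIMP3 and PI3) and none lower, where 10.9% of all tested genes were called in either direction, 5.96% higher and 4.95% lower. Indisulam had 4 of 9 called higher (MMP1, MMP13, TIMP3 and PI3) and none lower, against 15.2% of all tested genes called, 8.44% higher and 6.71% lower. The combination had 5 of 9 called higher than untreated (MMP1, MMP13, MMP3, TIMP3 and PI3) and none lower, beside 23.5% called, 13.0% higher and 10.6% lower over all tested genes, from which nothing is read because the genes were picked for it.

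Against palbociclib alone, the combination had 4 of the 9 called higher (MMP1, MMP13, MMP3 and PI3) and MMP2 called lower, with 17.0% of all tested genes called, 9.62% higher and 7.40% lower. Against indisulam alone it had 3 called higher (MMP1, MMP3 and PI3) and TIMP3 called lower, with 8.28% of all tested genes called, 5.09% higher and 3.19% lower. The median log2 ratio over the 9 genes was 0.55 for palbociclib, 1.21 for indisulam and 1.89 for the combination to untreated, where the medians of all tested genes were -0.02, 0.06 and 0.05. Nothing is read from these counts and medians, since the choice of genes and the filter favoured high values in treated libraries, the combination above all. The comparisons share libraries and are not independent of each other.

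A rough ceiling on the noise between libraries came from the departure from additivity, meaning how far the combination, on the log2 scale against untreated cells, lay from what both single drugs added up to. The robust spread of this quantity among genes of similar level holds noise and any true interplay of the drugs. For a single log2 ratio of a typical gene, it gave an upper bound on the SD. The bound was 0.62 at 1 to 5 CPM, 0.37 at 5 to 20 CPM, 0.26 at 20 to 100 CPM and 0.28 above. A given gene can vary more than a typical one, so multiples of this bound are a description. Genes were placed in a range by their mean over the 4 libraries, which for MMP1, MMP3 and PI3 was carried by the combination, so no multiple of the bound is given for them. MMP2 in the combination against palbociclib was at 4.61 times its bound, whereas TIMP3 in the combination against indisulam was at 2.03 times. The ratios of MMP14, TIMP1 and TIMP2 were at most 2.43 times their bound.

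The departure from additivity itself was called for 3 of the 9 genes, where 8.05% of all tested genes were called, 4.11% higher and 3.93% lower. Nothing is read from this count, because some of the genes were picked for their level in the combination, which enters the departure. MMP3 in the combination lay 3.11 above the sum of the single drugs on the log2 scale (interval 1.69 to 4.54) and MMP1 lay 2.02 above it (1.12 to 2.92). TIMP3 lay below the sum, at -2.86 (-4.27 to -1.44). For PI3 the sum of the single drugs was 8.23 and the combination 7.02, a departure of -1.21 (-2.85 to 0.43) that was not called and that rests on the single untreated read. MMP13, with no untreated read, had an interval from -4.66 to 2.33. The departures of the 4 highly expressed genes were smaller, at -0.81 for MMP2, -0.58 for MMP14, -0.47 for TIMP2 and 0.05 for TIMP1.

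**Figure D3:**
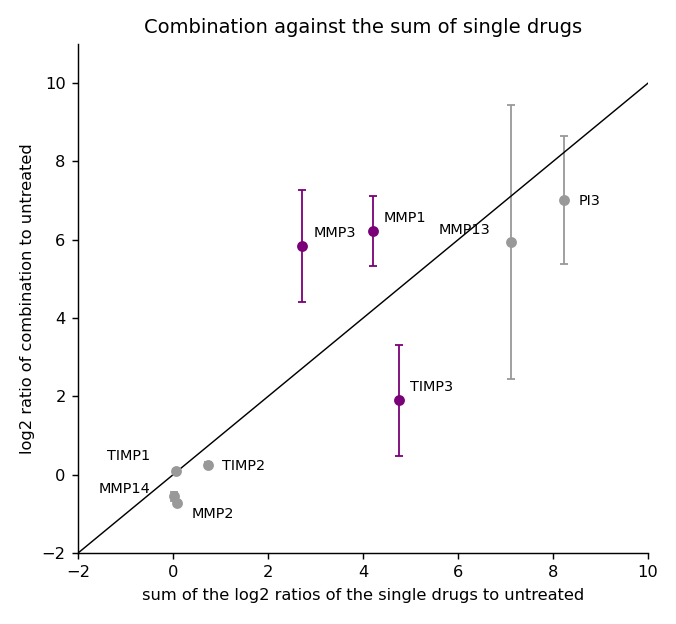
Log2 ratio of combination to untreated (vertical axis) against the sum of the log2 ratios of palbociclib and indisulam to untreated (horizontal axis) for the 9 tested genes; the line marks additivity, bars are 95% counting intervals of the departure from it, and purple marks the 3 genes called. MMP3 and MMP1 lie above the line, TIMP3 lies below it, and TIMP1 lies on it within 0.05.

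Proteases were then set against their inhibitors within each library, using reads per kilobase of exon so that genes could be compared with each other. In untreated cells the order per length was TIMP1 (1178 CPM per kilobase), MMP2 (286), TIMP2 (72.7) and MMP14 (43.9), with the other genes under 1. In the combination it was TIMP1 (1258), MMP2 (172), TIMP2 (86.8), MMP1 (47.4), PI3 (35.3), MMP14 (29.9) and MMP3 (14.4), with MMP13 at 1.53 and TIMP3 at 0.364. MMP1 and PI3 had thus moved from far below MMP14 to above it, and their levels per length stayed below those of TIMP1, MMP2 and TIMP2.

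The summed level of the 6 metalloproteinases divided by that of the 3 TIMPs was 0.265 untreated, 0.277 with palbociclib, 0.270 with indisulam and 0.197 with the combination (0.193 to 0.201). The combination had the lowest ratio, 1.34-fold below untreated, with an interval for counting error alone. This direction rested on MMP2, whose own ratio of 0.600 for combination to untreated was not called. Without MMP2 the ratio was 0.0358, 0.0252, 0.0647 and 0.0694 in the same order, so that the combination was 1.94-fold above untreated instead. For the 4 collagenase and stromelysin genes alone over the TIMPs, the ratio was 25.5-fold higher with indisulam and 71.3-fold higher with the combination than in untreated cells. The untreated ratio, 0.000660 (0.000447 to 0.000975), rested on 21 reads of MMP1 and 5 of MMP3. Some of these genes were picked for their level in the combination. The rises in the combination, here and without MMP2, are therefore only a description.

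The make-up of the summed metalloproteinase RNA differed between the libraries. MMP2 held 86.5% of the summed level of the 6 metalloproteinases untreated, 90.9% with palbociclib, 76.0% with indisulam and 64.8% with the combination. MMP1, MMP3, MMP10 and MMP13 together held 0.249%, 0.259%, 6.25% and 23.9%, of which MMP1 made up 17.9% and MMP3 5.43% in the combination. Among the TIMPs, TIMP1 held between 90.8% and 94.2% in every library.

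For single pairs of genes per length, TIMP1 exceeded MMP1 by 1928-fold untreated, 3417-fold with palbociclib, 59.8-fold with indisulam and 26.5-fold with the combination. The level of MMP2 was 3.94, 4.38, 2.26 and 1.98 times that of TIMP2 in the same order, which put the libraries with indisulam below those without. MMP14 was at 0.604, 0.426, 0.528 and 0.345 times TIMP2. Within the secreted enzymes, MMP1 was 27.8 times MMP3 with indisulam (17.2 to 48.0) and 3.29 times MMP3 with the combination (2.95 to 3.69), so adding palbociclib to indisulam went with a larger rise of MMP3 than of MMP1.

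**Figure D4:**
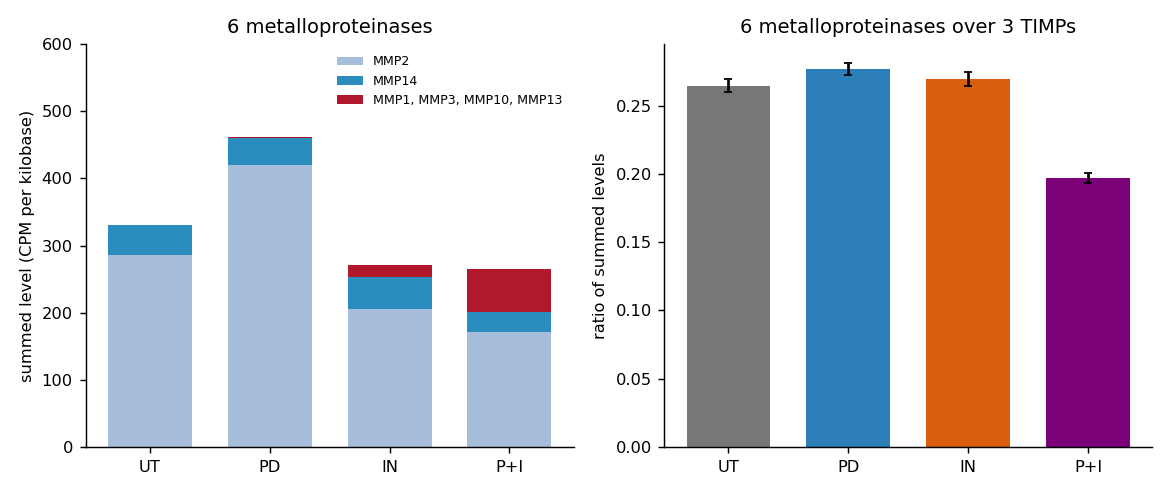
Left, summed level of the 6 metalloproteinase genes in CPM per kilobase of exon (vertical axis) in each library, split into MMP2, MMP14 and the 4 collagenase and stromelysin genes. Right, ratio of this sum to the summed level of TIMP1, TIMP2 and TIMP3, with 95% counting intervals; the ratio was 0.265, 0.277, 0.270 and 0.197, and the 4 genes in red made up 23.9% of the sum in the combination.

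MMP1, MMP3, MMP10 and MMP13 belong to a cluster of 9 metalloproteinase genes over 435 kb of chromosome 11 (102520508 to 102955732). MMP20, MMP27 and MMP8 had 0 reads in all 4 libraries, and 5 of the 9 genes were tested. Of these, MMP1, MMP3, MMP12 and MMP13 were called higher in the combination than in untreated cells, beside 13.0% of all tested genes. None was called lower, beside 10.6%. Nothing is read from this count, because MMP3, MMP12 and MMP13 were under 1 CPM untreated and passed the filter only through treated libraries. MMP12, the macrophage elastase, lies between MMP3 and MMP13. It had 0, 1, 9 and 103 reads in the untreated, palbociclib, indisulam and combination libraries. The exact counting interval of its ratio of combination to untreated began at 24.0-fold. MMP7 (matrilysin), at the far end, had 115, 235, 265 and 111 reads and was called lower in the combination than with palbociclib (log2 ratio -1.25) or indisulam (-1.03). The 4 genes called higher were neighbours of each other, and MMP10, with 2 reads or fewer, lay between them and the 3 genes without reads.

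Of the 10 nearest tested protein-coding genes, 5 on each side, 3 were called in the combination against untreated, where 23.5% of all tested genes were called. BIRC3, an inhibitor of apoptosis on the MMP7 side, was higher (457, 760, 3695 and 2721 reads, log2 ratio 2.38). DYNC2H1, a dynein heavy chain of cilia on the MMP13 side, was lower (1332, 1223, 1173 and 460 reads, -1.73), as was CFAP300 (-1.15). BIRC3 was as high with indisulam alone, at a log2 ratio of 2.60 to untreated.

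**Figure D5:**
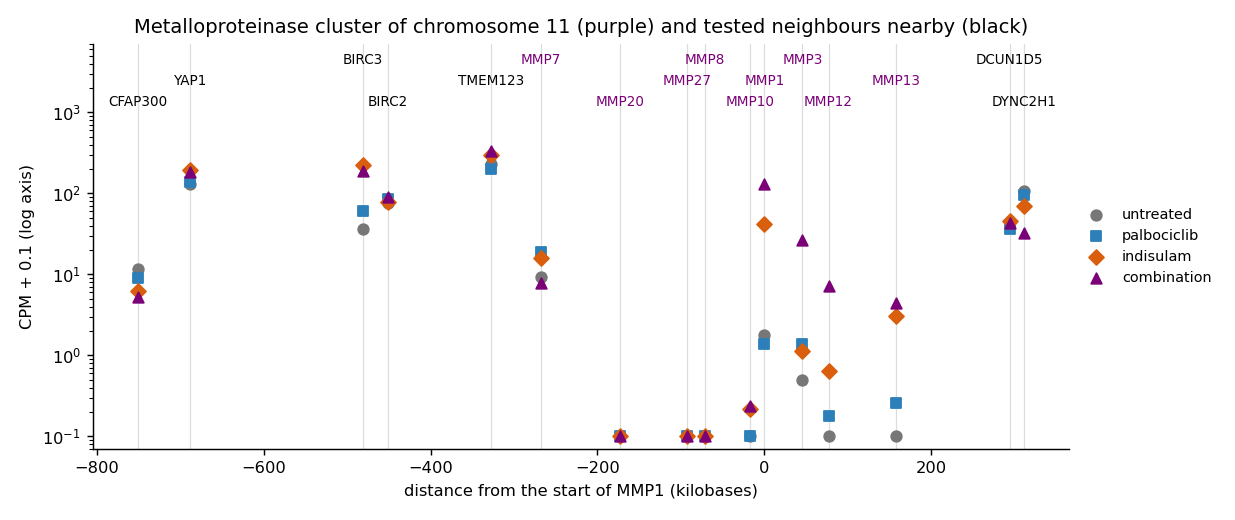
Level in CPM plus 0.1 (log axis) of the 9 cluster genes (purple names) and their tested neighbours nearby (black names) against the distance of the gene start from that of MMP1 in kilobases, for the 4 libraries. In the combination, MMP1, MMP3, MMP12 and MMP13 stand above the untreated points, whereas MMP20, MMP27 and MMP8 sit at 0 reads and MMP7 is near its untreated level.

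Other genes of the same pathway were counted in lists. A gene under 1 CPM untreated was tested only if treated libraries raised its mean, as for MMP12, MMP24, SERPINB2, A2M and SPP1. MMP28 and ELANE were under 1 CPM with indisulam and with the combination and passed through the other libraries. Nothing is therefore read from the list counts. Among 17 other metalloproteinase genes, 5 had no more than 3 reads in any library and 9 were tested. The combination against untreated had 3 of these called higher and 2 lower, beside 13.0% and 10.6% of all tested genes. Beside MMP12, the membrane-type gene MMP24 had 8, 44, 112 and 341 reads in the untreated, palbociclib, indisulam and combination libraries, a 37.3-fold ratio of combination to untreated (18.7 to 87.0). MMP15, also of the membrane type, was 2.56-fold higher. MMP28 (epilysin) had 104, 77, 9 and 9 reads and was 13.2-fold lower, and MMP17 was 2.14-fold lower. Palbociclib against untreated had 3 of the 9 called higher and none lower, beside 5.96% and 4.95% of all tested genes, and indisulam had 1 in each direction, beside 8.44% and 6.71%.

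Proenzymes need activation, and of 13 genes for activating enzymes and their control, 9 were tested. In the combination against untreated, 5 were called higher and none lower, beside 13.0% higher and 10.6% lower over all tested genes. Among them were genes of the plasminogen system. The inhibitor SERPINB2 had 0, 3, 45 and 160 reads, and the exact counting interval of its ratio began at 37.5-fold. Also called were the tissue-type activator PLAT (log2 ratio 1.35), the urokinase receptor PLAUR (1.26) and urokinase, PLAU (1.01). These include activators of plasmin formation as well as an inhibitor of it. FURIN, which cuts the proMMP14 propeptide, had a log2 ratio of -0.93 and was not called. With palbociclib alone none of the 9 was called, beside 10.9% of all tested genes, and with indisulam alone 1 was called higher, beside 8.44%. PLAT had log2 ratios of -0.13 with palbociclib alone and -0.06 with indisulam alone.

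Of 9 further genes that restrain metalloproteinases, 6 were tested, and the combination against untreated had 3 called higher and 1 lower, beside 13.0% and 10.6% of all tested genes. TFPI2, which inhibits plasmin and some metalloproteinases, had 240, 166, 1510 and 1497 reads (5.45-fold, 4.76 to 6.28), A2M, the broad protease trap alpha-2-macroglobulin, had 6, 14, 14 and 34 reads, and the proteoglycan gene SPOCK1 had a log2 ratio of 1.37. PCOLCE, which enhances procollagen processing and gives rise to a fragment that inhibits metalloproteinases, was lower at -1.45. TIMP4, the remaining gene of the TIMP family, had 0, 8, 9 and 23 reads and did not pass the filter.

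Elafin belongs to a family of whey acidic protein domain genes, of which 11 more were looked up and 2 were tested. SLPI, an inhibitor of neutrophil elastase close to PI3 on chromosome 20, had 50, 144, 72 and 216 reads in the untreated, palbociclib, indisulam and combination libraries, and was 3.78-fold higher in the combination than untreated (2.77 to 5.25). SLPI was high in both libraries with palbociclib, whereas PI3 was above the floor with either drug. WFDC3 was also called higher in the combination (20, 24, 15 and 49 reads, log2 ratio 1.07).

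The serine proteases that elafin inhibits had few reads, and fewest in the combination. ELANE, neutrophil elastase, had 36, 31, 8 and 2 reads in the untreated, palbociclib, indisulam and combination libraries, a ratio of combination to untreated of 0.0486 (0.00567 to 0.189), and was called lower. PRTN3, proteinase 3, had 35, 5, 3 and 0 reads and did not pass the filter. The exact counting interval of its ratio of combination to untreated ended at 0.0972. CELA1 had at most 1 read. The neutrophil markers MPO and S100A12 had at most 4 and 3 reads in any library.

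Substrates of these enzymes were counted as well. Of 14 matrix and cell surface substrates, 12 were tested, and 7 were called higher and none lower in the combination against untreated, beside 13.0% and 10.6% of all tested genes. The proteoglycan VCAN had a log2 ratio of 2.76, tenascin C (TNC) 2.38, osteopontin (SPP1) 2.02 and the growth factor HBEGF 1.41. Palbociclib had 3 of the 12 called higher and 1 lower, beside 5.96% and 4.95% of all tested genes, and indisulam had 5 higher and none lower, beside 8.44% and 6.71%.

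The genes most like the members across the 4 libraries were found by Euclidean distance between centred log2 values, among 11317 (PI3, MMP1) or 11318 (MMP13, TIMP3) other genes at a mean of 5 CPM or more. For PI3 the nearest were FGF1 (distance 1.06, with 2, 32, 128 and 534 reads), IGFBP5 (1.23) and VNN1 (1.49). For MMP1 they were the keratin gene KRT17 (0.845, with 15, 20, 820 and 1177 reads), OLAH (0.878) and KRT34 (0.899). For MMP13 they were INHBA (0.460, with 5, 14, 221 and 377 reads), CXCL1 (0.674) and GNAO1 (0.675). For TIMP3 they were F2RL3 (0.400, with 22, 49, 198 and 70 reads), SCG2 (0.617) and BDKRB2 (0.684). Likeness over 4 libraries is a description of these libraries.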

How the data were processed

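The 10 genes and all gene lists were chosen with earlier results of these data known. The authors deposited raw read counts for each Ensembl gene, with no normalization. The submitters' processing notes name TopHat2 2.1, HTSeq and GRCh38. The strand setting, the annotation release and the merging of duplicates are not given in the sources used here. Labels name Trizol and the study's methods name columns for RNA extraction, with stranded poly(A) libraries. Of the table entries, 9.61% to 10.1% were tallies outside genes (no feature, ambiguous or aligned to more than 1 place) and were left out of library sizes, so near-identical genes are undercounted.

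CPM was the count relative to the total of gene counts. Scaled counts were divided by the library total, as in the study's depth scaling, and multiplied by the mean total. A pseudocount of 1 was added for log2 ratios, with a Poisson delta interval. Folds in the text were ratios of CPM with exact conditional (Clopper-Pearson) intervals, or log2 ratios where stated. Because each condition had 1 library, no test across replicates was made. The calling steps were tested on simulated data. Symbols, positions and exon lengths came from GENCODE release 44 (GRCh38). Every member was named, and in each list up to 5 genes called in the combination against untreated, largest fold first and without items not reported here, beside genes of the fixed chromosome 11 cluster. Genes outside this rule (FURIN, PRTN3, CELA1, TIMP4, ADAM17 and the uncalled cluster genes and markers) were named after their values were seen or as listed members. Alternatives were other scalings, pseudocounts, filters, thresholds and intervals. Tools were Python 3.11.15, numpy 2.4.6, pandas 2.3.3, scipy 1.17.1, matplotlib 3.10.9, R 4.3.3 and edgeR 4.0.16, the last only for scaling factors.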

Additional observations from a re-analysis of the deposited data

Results flagged for a closer look

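For 4 genes, a drug's log2 ratio changed sign with the other drug present, and both counting intervals left out 0. The scaling was by library totals. None of these differences was tested against replicates, because each side is a pair of single libraries. TIMP3 differed most: palbociclib gave 1.59 without indisulam and -1.27 with it, a difference of -2.86 (counting interval -4.27 to -1.44). MMP2 had 0.55 for palbociclib without indisulam and -0.26 with it, a difference of -0.81. MMP14 had 0.13 for indisulam without palbociclib and -0.45 with it, a difference of -0.58. TIMP2 changed sign for both drugs, from 0.40 to -0.07 for palbociclib and from 0.32 to -0.14 for indisulam, a difference of -0.47 in each case. For MMP2, MMP14 and TIMP2 each of these ratios was under 2-fold. The MMP14 ratio of 0.13 and the TIMP2 ratio of -0.07 were only 0.458 and 0.243 times the bound on spread given above. Under some of the other scalings, the intervals of those ratios would hold 0. MMP1 also changed sign for palbociclib, from -0.39 without indisulam to 1.63 with it. It is not counted here because the interval of the former (-1.28 to 0.50) held 0.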

How the results depend on the processing

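Among the 54 values for single genes, 474 alternative settings were run, of which 466 kept the direction and the side of the threshold and none reversed a called value. A 3-fold threshold removed the calls of MMP3 for palbociclib against untreated, MMP2 for the combination against palbociclib and TIMP3 for the combination against indisulam. A pseudocount of 0.25 removed the calls of MMP13 for indisulam and for the combination against untreated, where the untreated library had 0 reads. A 1.5-fold threshold added MMP2 in the combination against untreated and in its departure from additivity, and MMP14 in the combination against indisulam. With a filter at a mean of 5 CPM, which removes MMP13 and TIMP3, 2 of 7 genes were called with indisulam and 3 of 7 with the combination against untreated. Of the 11376 genes passing that filter, 10.7% and 18.5% were called in these comparisons, in either direction. Nothing is read from these counts, because of how the genes were chosen. The ratio of metalloproteinases to TIMPs in the untreated, palbociclib, indisulam and combination libraries was 0.0358, 0.0252, 0.0647 and 0.0694 without MMP2, 0.282, 0.294, 0.295 and 0.217 with all 23 metalloproteinase and 4 TIMP genes, and 0.720, 0.755, 0.655 and 0.469 without division by length. The direction of the combination against untreated differed only without MMP2. No paired analysis was possible because each condition has 1 library, and no library could be left out for the same reason. Depth limits MMP10, MMP13, TIMP3 and untreated PI3 and MMP3, which rest on few reads.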

Other observations

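Among 30 ADAM and ADAMTS protease genes, relatives of the metalloproteinases that cut membrane proteins and proteoglycans, 21 were tested. The combination against untreated had 5 called higher and 3 lower, beside 13.0% and 10.6% of all tested genes. Nothing is read from this count, because ADAM28 was under 1 CPM untreated and passed the filter only through treated libraries. ADAMTS15, which cuts the proteoglycans aggrecan and versican, had 905, 348, 705 and 190 reads in the untreated, palbociclib, indisulam and combination libraries and a log2 ratio of -2.44. ADAM28 had 8, 43, 31 and 53 reads and a log2 ratio of 2.41. ADAMTS2, a procollagen N-proteinase, had 1069, 1055, 768 and 311 reads and a log2 ratio of -1.97. ADAMTS14, of the same procollagen-processing group, had 135, 296, 393 and 383 reads and a log2 ratio of 1.31. ADAM17, the sheddase that TIMP3 inhibits, had a log2 ratio of -0.45 and was not called.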
